A study of Homo sapiens with 2 samples.

Results

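The immediate early genes and ZFP36 were taken by symbol from the deposited gene table: FOS, JUN, JUNB, JUND, EGR1, IER2, DUSP1, ZFP36, KLF6 and KLF2. All 10 were among the 50229 symbols of the table, each as 1 row, and 9 of them reached an FPKM (fragments per kilobase of transcript, scaled to the depth of the library) of 1 in at least 1 library, as did 11645 symbols in all. The libraries came from ARP1, a human cell line of multiple myeloma, which is a cancer of plasma cells. One library carries the treatment label VCP knockdown (title A_si, here siVCP) and the other the label control (title A_NC, here siNC). The labels do not say which knockdown agent was used or when cells were harvested. As each group is a single library, replicate error could not be estimated, no test was run and no p-value is given. "Under the siVCP label" and "under the siNC label" stand for the values of the library so labelled.

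Immediate early genes are genes that cells transcribe within minutes of a growth factor, stress or cytokine signal, without first making new protein, and whose mRNAs are mostly short-lived. FOS and JUN family proteins pair to form the transcription factor AP-1. EGR1, KLF2 and KLF6 are zinc finger transcription factors, IER2 is a nuclear protein induced by the same signals, and DUSP1 is a phosphatase that switches off MAP kinases. ZFP36, also called tristetraprolin, binds AU-rich elements in the 3' UTR of mRNAs and recruits the machinery that shortens their poly(A) tails. In myeloma, KLF2 is known as part of a regulatory circuit with IRF4, a plasma cell transcription factor.

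VCP, the targeted gene, was checked first: its FPKM was 65.9 under the siVCP label and 47.7 under the siNC label, a 1.38-fold higher level [95% counting interval 1.33 to 1.43] where the label says knockdown. The transcript goes against the label, and each direction below refers to labels only. Plasma cell markers were present in both libraries, and all 8 of SDC1, XBP1, IRF4, PRDM1, TNFRSF17, CD38, JCHAIN and MZB1 passed an FPKM of 1, with a summed FPKM of 1618 and 1836 under the siVCP and siNC labels. The 6 T cell markers summed to 1.74 and 2.77, the 6 myeloid markers to 1.51 and 1.84 and the 6 stromal markers to 0.155 and 0.334, and the stromal markers COL1A2, COL3A1, DCN and LUM were at 0 in both. The part of other cell types in the ratios below was not tested, and fewer expressing cells and less RNA per cell cannot be told apart in bulk RNA. The total of the estimated counts was 68872657 under the siVCP label and 72566092 under the siNC label.

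The mRNA elements that ZFP36 recognises are shown first, because several members carry them. In GENCODE 29 the ZFP36 3' UTR itself held 3 copies of the heptamer TATTTAT (the core of the ZFP36 binding site, searched on the mRNA strand and written as DNA), the DUSP1 3' UTR held 3, the FOS 3' UTR 2, and those of JUN, JUND, KLF6 and KLF2 1 each. JUNB, EGR1 and IER2 held none. The windows of 30 bases around these copies are given below for 5 members, on GRCh38, with the heptamer in capitals (windows in ZFP36 overlap, so part of a neighbouring copy is also in capitals).
FOS, chr14:75282060-75282089, plus strand: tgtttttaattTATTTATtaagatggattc
FOS, chr14:75282084-75282113, plus strand: ggattctcagaTATTTATatttttatttta
DUSP1, chr5:172768642-172768671, minus strand: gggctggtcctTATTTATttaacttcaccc
DUSP1, chr5:172768374-172768403, minus strand: agaatatacctTATTTATttttgtgtaggt
DUSP1, chr5:172768181-172768210, minus strand: tgtttgctgatTATTTATgacctgaaataa
ZFP36, chr19:39409181-39409210, plus strand: aatgggcccttTATTTATgacgacttTATT
ZFP36, chr19:39409196-39409225, plus strand: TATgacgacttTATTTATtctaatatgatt
ZFP36, chr19:39409221-39409250, plus strand: tgattttatagTATTTATatatattgggtc
KLF6, chr10:3778340-3778369, minus strand: tatgtttctctTATTTATgccttgaggact
KLF2, chr19:16327101-16327130, plus strand: actgtgactggTATTTATtggacccagaga

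Of 9561 measured genes with an annotated 3' UTR, 30.6% held at least 1 heptamer and 4.80% held at least 3. The ZFP36 and DUSP1 3' UTRs are short, at 713 and 672 bases, against a median of 1031 bases. Among 2621 measured genes with a 3' UTR of 500 to 1287 bases, the range of the 9 members other than KLF6, the shares were 21.3% and 1.03%. The KLF6 3' UTR was 3543 bases long, and its 1 heptamer stood at bases 1181 to 1187. The 3 copies in ZFP36 began at bases 493, 508 and 533, close to each other, whereas those in DUSP1 began at bases 102, 370 and 563. The shorter pentamer ATTTA, searched on the mRNA strand and contained in each heptamer, was present in 9 of the 10 members (IER2 had none) and in 68.4% of measured genes. A match is a description of the letters and not a shown binding site.

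**Figure D1:**
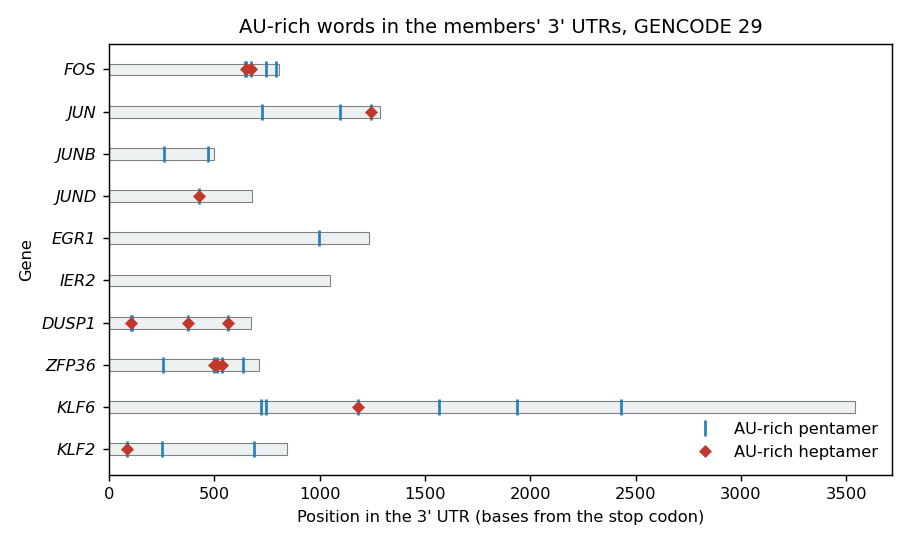
Position of AU-rich words in the 3' UTR of each member, in bases from the stop codon. Grey bars give the length of the 3' UTR, blue ticks the pentamer and red diamonds the heptamer. The 3 heptamers of ZFP36 lie close together, those of DUSP1 are spread out, and IER2 has neither word.

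The 250 bases upstream of the gene start (RefSeq, GRCh38.p14) were searched on both strands for the CArG box, to which SRF binds, the full CRE motif TGACGTCA and its 5-letter core TGACG, to which CREB and ATF factors bind, the GC box GGGCGG of the SP and KLF factors, the AP-1 motif TGANTCA, and TATAAA. A shorter form, TATAA, was added after the sequences were seen. The core lies within the full CRE, and TATAA lies within TATAAA. The promoters of the 3 members whose level differed most between the libraries are printed with matches in capitals. That of EGR1, the member with CArG boxes in this window, is printed too.
ZFP36, chr19:39406597-39406846, plus strand: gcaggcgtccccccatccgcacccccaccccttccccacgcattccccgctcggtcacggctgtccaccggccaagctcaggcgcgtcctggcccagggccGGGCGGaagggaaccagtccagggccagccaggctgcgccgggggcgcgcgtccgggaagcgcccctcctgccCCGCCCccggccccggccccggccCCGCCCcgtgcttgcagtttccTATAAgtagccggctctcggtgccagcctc
KLF6, chr10:3785210-3785459, minus strand: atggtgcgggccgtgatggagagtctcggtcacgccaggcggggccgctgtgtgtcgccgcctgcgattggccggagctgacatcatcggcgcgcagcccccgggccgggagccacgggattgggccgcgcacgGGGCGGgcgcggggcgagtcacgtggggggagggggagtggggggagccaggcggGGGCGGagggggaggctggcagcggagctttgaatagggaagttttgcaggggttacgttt
KLF2, chr19:16324576-16324825, plus strand: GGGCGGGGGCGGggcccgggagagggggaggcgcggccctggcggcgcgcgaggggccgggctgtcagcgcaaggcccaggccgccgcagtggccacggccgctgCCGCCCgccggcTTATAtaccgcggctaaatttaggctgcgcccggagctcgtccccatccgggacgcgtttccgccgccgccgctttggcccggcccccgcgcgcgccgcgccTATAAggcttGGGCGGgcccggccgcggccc
EGR1, chr5:138465229-138465478, plus strand: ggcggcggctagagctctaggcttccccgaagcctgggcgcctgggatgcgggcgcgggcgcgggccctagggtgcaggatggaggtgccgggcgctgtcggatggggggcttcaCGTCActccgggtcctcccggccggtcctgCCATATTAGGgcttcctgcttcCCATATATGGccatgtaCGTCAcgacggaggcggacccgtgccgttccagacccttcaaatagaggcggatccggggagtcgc

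EGR1 was the single member with a CArG box, which it held in 2 copies, at bases -105 to -96 and -83 to -74 from the gene start. Of 27305 promoters of this length, 1.14% held this motif, as did 1.01% of the 8135 of measured genes. The full CRE was present in JUND and DUSP1 in 1.77% of all promoters and in 3.16% of those of measured genes. Its core was present in 7 members, namely FOS, JUN, JUNB, JUND, EGR1, IER2 and DUSP1, against 21.7% of all promoters and 31.7% of those of measured genes. GC boxes numbered 3 in ZFP36, 2 in KLF6 and 4 in KLF2. GC boxes were present in 8 members, in 42.3% of all promoters and in 69.4% of those of measured genes. TATAA was present in FOS, JUNB, JUND, DUSP1, ZFP36 and KLF2 (19.6% of all promoters, 9.80% of those of measured genes), and TATAAA in FOS, JUNB and DUSP1 (11.1% and 4.89%). The AP-1 motif in the form TGANTCA was present in 0 members, in 6.60% of all promoters and in 3.43% of those of measured genes. Variants with an extra letter, such as TGACATCA, were not searched, nor were bases further upstream.

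**Figure D2:**
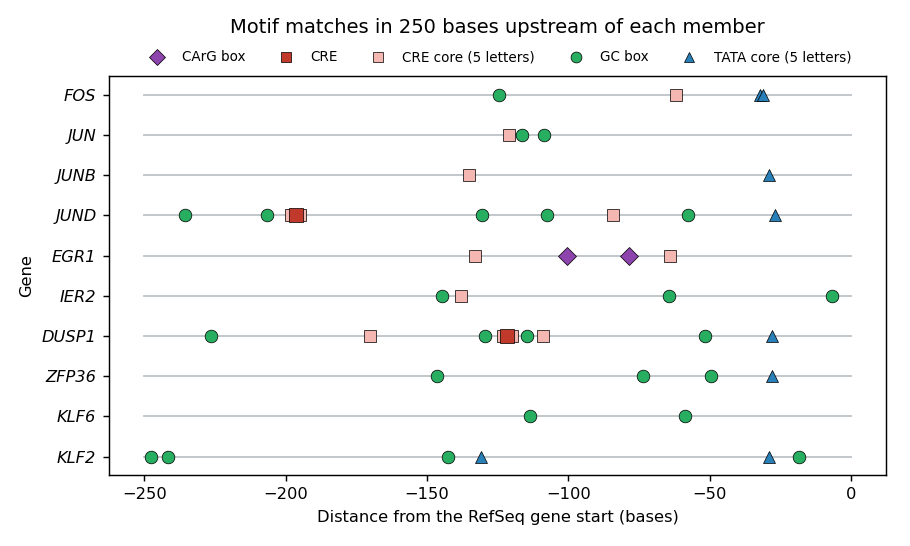
Motif matches upstream of each member, by distance in bases from the RefSeq gene start. Symbols mark the CArG box, the full CRE and its core, the GC box and the 5-letter TATA core on either strand. CArG boxes are present in EGR1 alone among the members, and GC boxes in 8 members.

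The level of the members spanned a wide range and the order differed between the libraries. In the library labelled siNC, FPKM was highest for JUNB (61.7), followed by JUND (48.0), KLF2 (45.0), IER2 (24.6), ZFP36 (10.1), EGR1 (6.35), KLF6 (5.63), JUN (4.77), DUSP1 (4.11) and FOS (0.487). In the library labelled siVCP the order was JUNB (69.7), JUND (59.4), ZFP36 (30.3), KLF2 (24.5), IER2 (21.5), KLF6 (11.8), EGR1 (7.33), DUSP1 (5.56), JUN (4.72) and FOS (0.627). ZFP36 therefore had rank 5 under the siNC label and rank 3 under the siVCP label. The Poisson counting intervals of neighbours in this order overlapped for DUSP1 and JUN under the siVCP label. In the library labelled siNC they overlapped for JUND and KLF2, EGR1 and KLF6, KLF6 and JUN, and JUN and DUSP1.

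**Figure D3:**
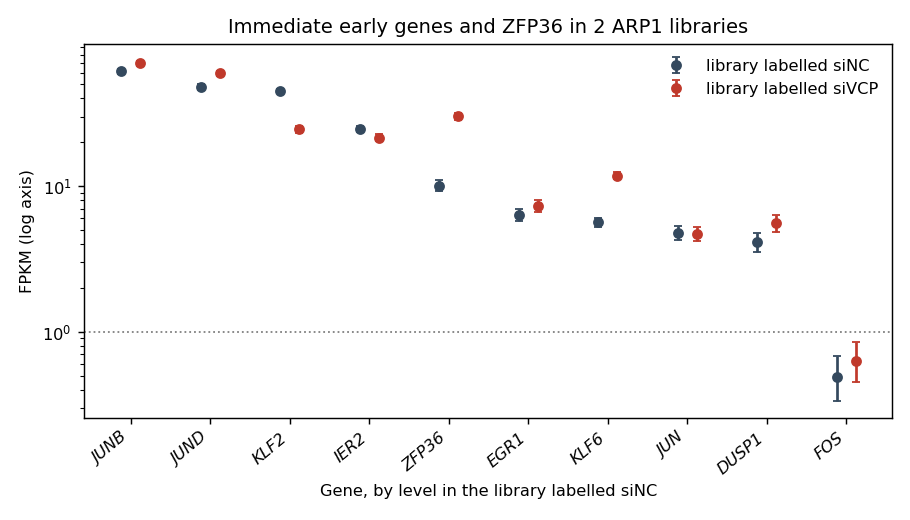
FPKM (log axis) of each member under the siNC label (dark) and the siVCP label (red), ordered by the former. Bars are 95% Poisson counting intervals, and the dotted line is an FPKM of 1. ZFP36 lies at 10.1 and 30.3 and KLF2 at 45.0 and 24.5, while FOS lies below the line in both libraries.

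On the scale log2((FPKM labelled siVCP + 1)/(FPKM labelled siNC + 1)), 2 members, ZFP36 and KLF6, were at least 1.5-fold higher under the siVCP label. Over the 11645 measured genes 4.53% were. One member, KLF2, was at least 1.5-fold lower, as were 5.87% of all measured genes. The other 6 measured members lay within 1.5-fold. At 2-fold, 1 member (ZFP36) was higher, against 1.05% of genes, and 0 members were lower, against 1.31%. The median log2 ratio was 0.18 over the 9 measured members and -0.02 over all measured genes. The members were chosen with earlier results of these data known, so these contrasts are description only. The 95% counting interval of the FPKM fold lay on 1 side of 1 for 8 of the 9 measured members, all but JUN, and for 60.8% of genes with a fragment in both libraries. Counting error alone is small at this depth and leaves out the variation between cultures.

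Gene positions are those of the deposited table, whose coordinates match GENCODE 29 on GRCh38 at a start or end for 6 of the 10 members. Of the summed FPKM of the 4 AP-1 genes among the members, JUNB and JUND made up nearly all. JUNB (ENSG00000171223, chromosome 19, 12791486 to 12793315, plus strand), often an antagonist of JUN, had FPKM 69.7 under the siVCP label and 61.7 under the siNC label, from 10524 and 9827 estimated counts, a fold of 1.13 [1.07 to 1.19]. JUND (ENSG00000130522, chromosome 19, 18279694 to 18281622, minus strand), the member of the family that resting cells also express, had FPKM 59.4 and 48.0, from 9459 and 8068 estimated counts, a fold of 1.24 [1.17 to 1.31]. Both were slightly higher under the siVCP label, below the 1.5-fold mark. JUN (ENSG00000177606, chromosome 1, 58780791 to 58784047, minus strand), the strongest activator of the family, had FPKM 4.72 and 4.77, from 1270 and 1352 estimated counts, a fold of 0.991 [0.848 to 1.16]. FOS (ENSG00000170345, chromosome 14, 75278826 to 75282230, plus strand), which dimerises with the JUN proteins and is the classic serum-induced gene, had FPKM 0.627 and 0.487, from 167 and 137 estimated counts, a fold of 1.29 [0.8 to 2.09]. JUN and FOS thus showed no difference outside counting error, and the interval of FOS is the widest of the members. The share of JUNB in the summed FPKM of these 4 genes was 51.8% under the siVCP label and 53.6% under the siNC label, that of JUND 44.2% and 41.8%, that of JUN 3.51% and 4.15% and that of FOS 0.466% and 0.423%.

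EGR1 (ENSG00000120738, chromosome 5, 138465479 to 138469303, plus strand), which links mitogen signals to growth control, had FPKM 7.33 and 6.35 under the siVCP and siNC labels, from 1899 and 1735 estimated counts, a fold of 1.15 [1.01 to 1.32]. IER2 (ENSG00000160888, chromosome 19, 13150411 to 13154911, plus strand) had FPKM 21.5 and 24.6, from 5477 and 6592 estimated counts, a fold of 0.876 [0.815 to 0.942]. DUSP1 (ENSG00000120129, chromosome 5, 172768096 to 172771195, minus strand) had FPKM 5.56 and 4.11, from 925 and 721 estimated counts, a fold of 1.35 [1.11 to 1.65]. Of these 3 genes, IER2 was lower and EGR1 and DUSP1 were higher under the siVCP label, and none passed 1.5-fold.

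ZFP36 (ENSG00000128016, chromosome 19, 39406847 to 39409412, plus strand) had FPKM 30.3 under the siVCP label and 10.1 under the siNC label, from 4947 and 1746 estimated counts. The fold was 2.99 [2.68 to 3.34] and the log2 ratio 1.49, rank 38 of 11645 from the highest. Its paralogs ZFP36L1 and ZFP36L2, which bind the same elements and were singled out after their values were seen, had FPKM 26.3 and 36.2 under the siVCP label and 32.5 and 37.2 under the siNC label. The ZFP36 share of the summed FPKM of the 3 genes was 32.7% under the siVCP label and 12.7% under the siNC label, while that of ZFP36L1 was 28.4% and 40.7% and that of ZFP36L2 39.0% and 46.6%. The summed FPKM of the family was 92.8 and 79.8.

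The KLF pair lay on opposite sides. KLF6 (ENSG00000067082, chromosome 10, 3775996 to 3785209, minus strand), a factor induced by injury and stress signals, had FPKM 11.8 under the siVCP label and 5.63 under the siNC label, from 6001 and 3012 estimated counts. Its fold was 2.10 [1.93 to 2.30] and its log2 ratio 0.95, rank 142 from the highest. KLF2 (ENSG00000127528, chromosome 19, 16324826 to 16328685, plus strand), a factor of lymphocyte quiescence and trafficking, had FPKM 24.5 and 45.0, from 5709 and 11062 estimated counts. It was 1.84-fold lower [1.72 to 1.96] under the siVCP label, with a log2 ratio of -0.85, rank 255 from the lowest. In the library labelled siNC, KLF2 had 34.5% of the summed FPKM of the 17 listed KLF genes and KLF6 4.31%. In the library labelled siVCP the shares were 22.0% and 10.6%.

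**Figure D4:**
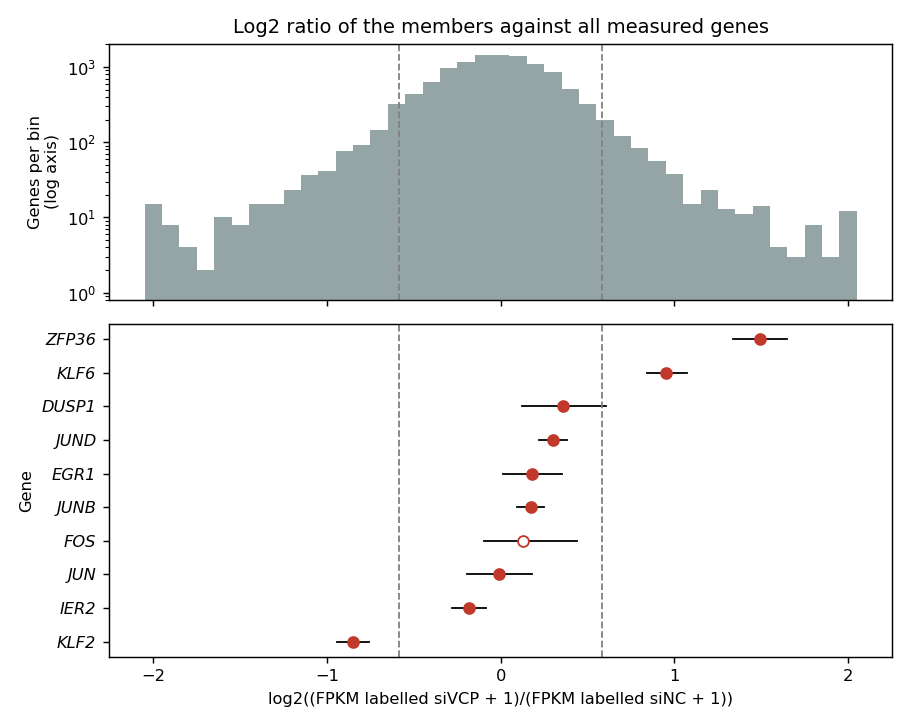
Top, number of genes (log axis) by log2 ratio in bins of 0.1 over the 11645 measured genes, with values beyond the axis pooled in the end bins. Bottom, log2 ratio of each member with its 95% counting interval, FOS open because it did not reach an FPKM of 1. Dashed lines mark 1.5-fold. ZFP36 and KLF6 lie beyond the right line and KLF2 beyond the left line.

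With 2 libraries, likeness between genes is only the closeness of 1 ratio. The protein-coding genes that reached FPKM 5 in either library and had the log2 ratio nearest to ZFP36 were YKT6 (1.51) and SLC25A22 (1.51). The nearest to KLF6 were BYSL (0.95) and CHAC1 (0.95), and the nearest to KLF2 were TOP2B (-0.85) and TTC7A (-0.85). Of the 10 members 5 lie on chromosome 19 (JUNB, JUND, IER2, ZFP36 and KLF2), whose 781 measured genes had a median log2 ratio of 0.05, with 4.87% at least 1.5-fold higher and 4.10% lower. The nearest measured protein-coding rows beside ZFP36 had log2 ratios of 0.235 (MED29) and -1.18 (PLEKHG2), those beside KLF6 0.04 (PITRM1) and -0.12 (NET1, followed by ASB13 at 0.86), and those beside KLF2 0.13 (AP1M1) and 0.11 (EPS15L1). PLEKHG2 thus lay past 1.5-fold on the side opposite to ZFP36, and ASB13 lay past it on the side of KLF6. These rows were taken by their order along the chromosome, without a limit on distance.

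No row of the table overlapped a member on the same strand. On the opposite strand 2 rows overlapped IER2, with 30 and 3 estimated counts under the siVCP label and 0 under the siNC label, and 1 row overlapped DUSP1, with 9 estimated counts under the siVCP label and 24 under the siNC label. Strandedness is not stated in the labels, so reads of these rows and of the member cannot be told apart. Log2 ratios varied with transcript length and GC content. In 5 equal bins of 9670 genes, the median went from 0.08 for the shortest to -0.16 for the longest transcripts, and from -0.19 for the lowest to 0.07 for the highest GC content. ZFP36 (1786 bases, 57.3% GC) lay in bins with medians of 0.08 and 0.09, KLF6 (4656 bases, 45.9%) in bins with -0.05 and -0.07, and KLF2 (2018 bases, 65.2%) in bins with 0.07 and 0.07. These bin medians lie between -0.07 and 0.09, and the part of length and GC content in the members' ratios was not tested.

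Among the other immediate early genes, 15 measured genes had a log2 ratio below 0 and 5 above, where 52.8% of all measured genes lay below 0. Of 30 listed, 20 were measured, 0 were at least 1.5-fold higher and 1 was lower, with a median log2 ratio of -0.17 against -0.02 over all measured genes. Here and in each list that follows, the shares of all measured genes beside such counts are 4.53% higher and 5.87% lower. The lower gene was PIM1, a survival kinase, with FPKM 22.0 under the siVCP label and 34.1 under the siNC label and a log2 ratio of -0.61. The count of 1 rests on the log2(FPKM + 1) scale. By FPKM fold, MAFF (1.54-fold) and NFIL3 (1.5-fold) also lay at least 1.5-fold lower under the siVCP label. The highest log2 ratio was that of the antiproliferative gene BTG1 (0.34). By level, MCL1, which encodes a survival protein on which myeloma cells depend, stood first with FPKM 106.9 and 130.1, the bZIP repressor gene NFIL3 had 67.5 and 101.6 (log2 ratio -0.58), and the pseudokinase gene TRIB1 had 61.6 and 61.7.

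Of 10 other AP-1 partners, 7 were measured, with a median of 0.02. FOSL1 (FRA-1) was higher, with FPKM 2.66 under the siVCP label and 1.11 under the siNC label, a fold of 2.40 [1.68 to 3.47]. ATF3, a stress-induced partner, was lower, with FPKM 1.51 and 2.94 and a log2 ratio of -0.65. BATF, the lymphoid partner of JUN proteins, had the highest level, at FPKM 17.1 and 12.3.

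Of 15 other DUSP phosphatases, 14 were measured, 1 was higher and 0 were lower, with a median of 0.08. DUSP14 had a log2 ratio of 0.59, with FPKM 11.8 and 7.53 under the siVCP and siNC labels. DUSP5, which inactivates nuclear ERK, had the highest level, at FPKM 106.4 and 72.0 and a log2 ratio of 0.56, below the mark. The lowest ratio was that of DUSP16 (-0.23). Of 15 other KLF genes, 9 were measured, 0 were higher and 1, KLF12, was lower (-0.69), with a median of -0.305. KLF10 had the highest ratio (0.29), and KLF16 and KLF11 had the highest levels, at FPKM 29.2 and 13.6 under the siVCP label and 25.1 and 17.9 under the siNC label.

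**Figure D5:**
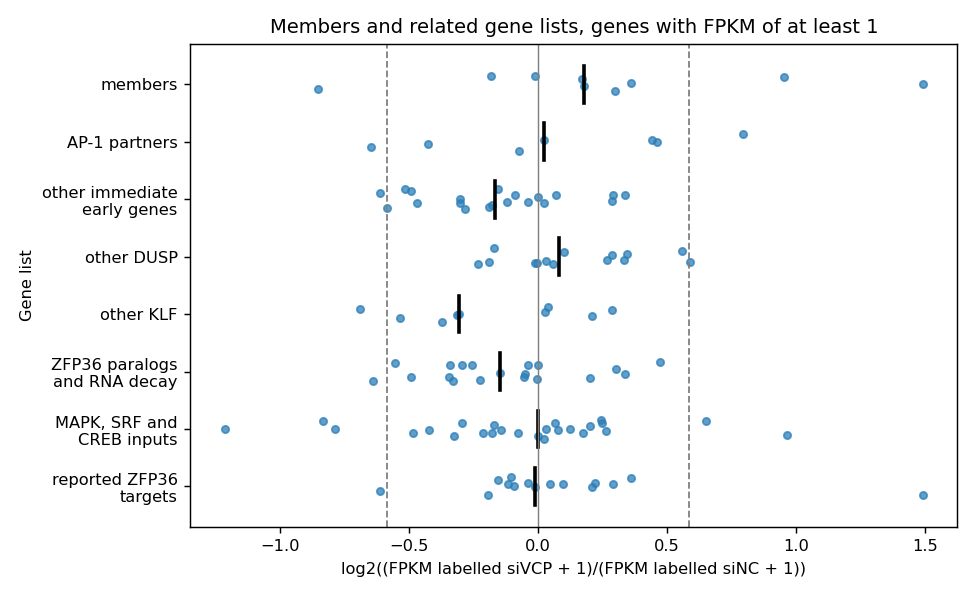
Log2 ratio of each gene with an FPKM of at least 1, for the members and 7 related lists. Points are genes, spread vertically for legibility, black bars are list medians and dashed lines mark 1.5-fold. The median is 0.18 for the members and -0.17 for other immediate early genes, and ZFP36 is the point furthest right in its 2 lists.

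Genes upstream of the members gave a median log2 ratio near 0, at 0.00069 over 25 measured of 29 listed MAP kinase, SRF and CREB genes, with 2 higher and 3 lower. MEF2D, a MADS-box factor like SRF, had FPKM 43.1 and 21.6 under the siVCP and siNC labels (log2 ratio 0.97), and HRAS had 23.8 and 14.8 (0.65). ELK3, a ternary complex factor that binds beside SRF, was lower, at FPKM 5.35 and 13.7 (-1.21). MRTFB, an SRF coactivator, had FPKM 0.848 and 2.29 (-0.83) and CREB1 had 0.608 and 1.77 (-0.78). SRF itself, named after its value was seen, had a log2 ratio of 0.25. MAPKAPK2, the kinase that phosphorylates and restrains ZFP36, had the highest level, at FPKM 86.3 and 74.8.

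Downstream of ZFP36, 24 mRNAs reported as its targets were listed beside the 4 members that also stand in that list (FOS, JUN, DUSP1 and ZFP36). Of the 24, 12 were measured, 0 were higher and 1 (PIM1) was lower, with a median of -0.065. The highest of them was IER3, at 0.29. PIM1 and IER3 also stand in the list of other immediate early genes, so they are not separate observations. Of the 19 genes in the list of ZFP36 paralogs and mRNA decay factors, all were measured, 0 were higher and 1 was lower, with a median of -0.15. That 1 was the decapping enzyme gene DCP2 (-0.64). KHSRP, another AU-rich element binding protein, had the highest ratio (0.47), with FPKM 105.2 and 75.6, and PABPC1, the main poly(A)-binding protein, had FPKM 208.0 in both libraries. Over all measured genes with a 3' UTR, the median log2 ratio was 0.03 for 6640 genes without the heptamer, -0.06 for 1792 genes with 1 and -0.15 for 1129 genes with 2 or more. Median transcript lengths in these groups were 2729, 4129 and 5614 bases and median GC contents 52.4%, 45.8% and 41.9%. Both moved with the ratio, and their part in it was not tested. With 3' UTRs of 500 to 1287 bases the medians were 0.03, -0.02 and -0.07 over 2063, 429 and 129 genes, at median transcript lengths of 2587, 2738 and 2560 bases, and GC content still moved with them, at 52.8%, 48.0% and 45.6%. Within this length range the shares at least 1.5-fold lower were 4.17%, 5.36% and 3.10%, and the shares higher were 3.54%, 2.8% and 2.33%. Without the length limit the shares lower were 4.08%, 5.52% and 5.85%, and those higher were 4.13%, 2.9% and 2.39%. All of these series but the first followed the order of the medians. The members ZFP36 and DUSP1, with 3 heptamers each, had log2 ratios of 1.49 and 0.36. As 2 picked genes they say nothing about the group medians.

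For EGR1, 8 of 10 listed corepressor and target genes were measured, 0 were higher and 0 lower, with a median of -0.07 and a range from -0.57 (TXNIP) to 0.33 (TGFB1). For KLF2, 5 of 8 listed targets were measured, 0 were higher and 0 lower, with a median of -0.04. ITGB7, an integrin subunit used for homing, had FPKM 352.1 and 362.8. S1PR1, which governs lymphocyte exit from tissue, had the lowest ratio (-0.51), at FPKM 0.762 and 1.51, and CDKN1A the highest (0.10). The FPKM of S1PR1 was 1.98-fold lower [1.51 to 2.6] under the siVCP label, which the log2(FPKM + 1) scale understates. Of the 5 measured targets, 3 had a log2 ratio below 0 and 2 above.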

How the data were processed

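Per the labels' protocols, the reads are paired-end reads of poly(A) RNA from ARP1. HISAT2 2.0 and StringTie 1.3.0 are the tools in the submitters' processing notes, which give neither role nor order. For the genome build, the annotation and the strandedness, the answer is not given in the sources used here. FPKM values were normalized by the authors before deposition, and rows at a count of 0 were set to 0. The authors' deposited estimated counts are whole numbers that pile up at multiples of 4 (1205 rows at 4, 417 at 3 and 244 at 5 in the library labelled siVCP), so 1 fragment was inferred to add about 4 counts. Intervals use counts divided by 4: exact conditional binomial for folds and Poisson for levels, both at 95%. They cover counting error at most, because each label has 1 library. They may be too narrow even for that, because the reads carry no molecular identifiers and are not independent molecules. Rows sharing a symbol were summed, genes that reached FPKM 1 in either library were used, and "higher" and "lower" in lists mean 1.5-fold on the log2(FPKM + 1) scale, which understates low genes.

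Of the members, 6 share a start or end with the GENCODE 29 transcript used for their 3' UTR on GRCh38. That transcript was the APPRIS principal one, and the longest where several were. Length and GC content came from the longest basic protein-coding transcript, present for 9670 genes. Members and lists were chosen with earlier results of these data known, and the lists share some genes. Named genes were the members, VCP, up to 4 highest and 4 lowest list genes past 1.5-fold or else the extremes, the 3 highest levels per list, the 2 nearest genes by ratio, and the markers. Chromosomal neighbours, the ZFP36 paralogs, SRF, MAFF, the short TATA form and the 3' UTR length range were added after values were seen. The ratio and interval steps were checked on simulated Poisson counts at 4 counts per fragment. Such data cannot check that factor or variation beyond Poisson, and the other steps were not simulated. Software: scipy 1.17.1 and numpy 2.4.6 for intervals, pandas 2.3.3 for tables, matplotlib 3.10.9 for plots, under Python 3.11.15.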

Additional observations from a re-analysis of the deposited data

How the results depend on the processing

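No paired analysis was possible because there is a single library per label, and none could be left out. Over the alternatives run, no member past 1.5-fold changed side: ZFP36 ranged from 1.22 to 1.57, KLF6 from 0.66 to 1.08 and KLF2 from -0.93 to -0.76. Pseudocount 5 gave 1.22 for ZFP36, 0.66 for KLF6 and -0.76 for KLF2, and CPM from the counts gave 1.08 for KLF6. JUN, at -0.011, lay above 0 when libraries were rescaled to the same sum (0.013), centred on the median (0.013) or given as CPM (0.016). Its largest move was to the other side, at -0.103 relative to the GC content bin. Filters, thresholds and the choice of row per symbol cannot move a member's ratio, so they say nothing of its stability. A pseudocount cannot change the side of a ratio. The shifts from rescaling, centring and bins were small beside the ratios of ZFP36, KLF6 and KLF2. That these 3 genes kept their side is therefore no check of stability. For members with smaller ratios the bins weighed more. EGR1 went from 0.181 to 0.089 relative to the GC content bin, but was at 0.184 relative to the transcript length bin. JUNB went from 0.173 to 0.096 relative to the transcript length bin. IER2 moved the other way in size, from -0.182 to -0.256 relative to the GC content bin. The counting intervals of the folds leave out such shifts. At 2-fold the members past the mark were 1 higher and 0 lower. Over all genes 528 were higher and 684 lower at 1.5-fold. These counts were 163 and 141 at pseudocount 5, 328 and 288 with an FPKM of at least 5, 122 and 153 at 2-fold, 324 and 375 relative to the transcript length bin, 339 and 379 relative to the GC content bin, and 1351 genes were lower at pseudocount 0.1. The settings with an FPKM of at least 5 or relative to bins used 6245 and 9670 genes in place of 11645. FOS, below an FPKM of 1, was measured on 42 and 34 fragments and its ratio is limited by depth.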
